A study of Homo sapiens with 10 samples.

Results

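The suppressor of cytokine signaling (SOCS) family was followed in NB4 cells, a human acute promyelocytic leukemia cell line, after knockdown of GSE1 and after inhibition of LSD1. The family was taken as the protein-coding genes with the symbols SOCS1, SOCS3, CISH, SOCS2, SOCS5, SOCS6 and SOCS7, so that 7 of the 60603 genes listed in each table, or of the 19975 protein-coding ones, were members, and all 7 carried an adjusted p-value in every comparison. In the knockdown experiment, NB4 cells carried either the pLKO.1 puro vector without an insert (EV) or this vector with a hairpin against GSE1, shA1 or shB2, and RNA was taken at 48 hours from 2 libraries per condition. In the inhibitor experiment, NB4 cells were given the LSD1 inhibitor MC2580 at 2 µM or its solvent DMSO for 24 hours, again with 2 libraries per condition. The EV cells carried no hairpin, so lowering GSE1 and carrying any hairpin cannot be told apart in comparisons with EV, and all conditions share 1 leukemia line with its own fusion oncogene and no added cytokine in its stated medium.

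SOCS proteins are the feedback brakes of cytokine receptors. A cytokine activates receptor-bound Janus kinases (JAK), which phosphorylate STAT transcription factors, and STATs switch on several SOCS genes, whose products bind the phosphorylated receptor or kinase through an SH2 domain. A SOCS box then couples the bound target to an Elongin and Cullin ubiquitin ligase for destruction, and in SOCS1 and SOCS3 a further short region blocks the kinase itself. In myeloid cells they limit the response to interferons, interleukins and colony-stimulating factors.

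The control regions of the family differ in the letters that STAT and interferon factors are known to bind. RefSeq promoter windows on GRCh38.p14, from 250 bases before to 50 bases after a start site, were found for 4 of the 7 genes (CISH, SOCS1, SOCS3 with more than 1 window, and SOCS6), giving 5 windows. Searched on both strands, TTCNNNGAA, the core of a STAT site, which reads the same on either strand, was present in 7.66% of 35116 promoter windows, and the core of an interferon-stimulated response element, GAAA followed by any 2 bases and GAAA again, in 3.57%. CISH held 4 copies of the first and no copy of the second, SOCS1 held 1 copy of the second and no copy of the first, and the windows of SOCS3 and SOCS6 held neither. The sequences are shown for CISH because it had the highest level of the family and for SOCS1 because it rose under both hairpins, each 5′ to 3′ on the strand of the gene with the motif in capitals. The first pair of CISH windows share bases, as do the last pair, and the motifs begin 241, 230, 129 and 112 bases before the start site.
CISH, chr3:50611995-50612024, minus strand: cgccccgttTTCCTGGAAagttcttggaaa
CISH, chr3:50611985-50612014, minus strand: tcctggaaagTTCTTGGAAatctgtcaaag
CISH, chr3:50611884-50611913, minus strand: cagcccgcggTTCTAGGAAgacgctgcttc
CISH, chr3:50611867-50611896, minus strand: aagacgctgcTTCCGGGAAgggctggaacg
SOCS1, chr16:11256298-11256327, minus strand, 113 bases before the start site: cgccaccgcgGAAAGAGAAAccaaaagtgg

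The deposited tables hold, for each gene, a mean normalized count over all libraries of an experiment (the base mean) and, for each comparison, a log2 fold change with its standard error and p-values from the Wald test of the authors' DESeq2 fit. A gene is said here to have passed the test when its Benjamini-Hochberg adjusted p-value was below 0.01, and to have passed the threshold when its log2 fold change also exceeded 1 in size. Values and read depths of single libraries were not analysed here, so the spread between libraries enters only through the standard errors. The GSE1 transcript was lower under both hairpins, at -0.77 ± 0.13 (log2 fold change ± SE) with shA1 and -0.79 ± 0.14 with shB2 (adjusted p = 2.47e-07 and 7.66e-08), and stood at 0.07 ± 0.20 with MC2580 (adjusted p = 1.00), and KDM1A, which encodes LSD1, lay between -0.05 and 0.03 in the comparisons. The myeloid identity of the cells was clear from MPO, the peroxidase of promyelocyte granules, at a base mean of 506765 and 824818 in the 2 experiments, although ELANE, neutrophil elastase, was near 0 (1.10 and 3.87). Defining genes of other cell types were at or near 0 (CD3E 1.55 and 2.98, MS4A1 0.217 and 0, CDH1 0 and 0.859, COL1A2 0.0734 and 0.750), but CD3D (866 and 869) and the epithelial genes EPCAM (432 and 403) and KRT8 (152 and 143) were read.

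All 7 genes were expressed. Their base means ran from 89.5 for SOCS3 and 159 for SOCS1 to 680 for SOCS5 and 1008 for CISH in the knockdown experiment, and from 56.5 for SOCS3 to 1612 for CISH in the inhibitor experiment. To compare levels between genes, the condition means implied by the base mean and the fold changes were divided by the length of each MANE transcript, the reference transcript of the gene. On this scale of normalized counts per kb, CISH was the highest of the family in all 5 conditions, at 461 in EV, 546 in shA1, 491 in shB2, 753 in DMSO and 844 in MC2580. In EV the order below CISH was SOCS2 (166), SOCS5 (145), SOCS6 (80.3), SOCS1 (39.2), SOCS7 (27.1) and SOCS3 (14.6). In DMSO it was SOCS2 (180), SOCS5 (120), SOCS1 (69.8), SOCS6 (66.5), SOCS7 (25.9) and SOCS3 (20.4). SOCS1 moved from the fifth place in EV to the third in shA1 (130 per kb) and the second in shB2 (216 per kb), whereas SOCS5 went from the third in EV to the second in shA1 (210 per kb) and the fifth in shB2 (73.7 per kb). The order depends on the length used. Per kb of all annotated exons of a gene, CISH stayed the highest in the 5 conditions (184 in EV), but SOCS2 in EV was at 61.2, below SOCS5 (92.2) and SOCS6 (78.4), and SOCS1 was at 27.2 in EV, the fifth place, 90.1 in shA1, the fourth, 150 in shB2, the second, and 48.3 in DMSO, the fifth. These levels are derived means without a spread of their own, so whether neighbours in the order differ was not tested.

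**Figure D1:**
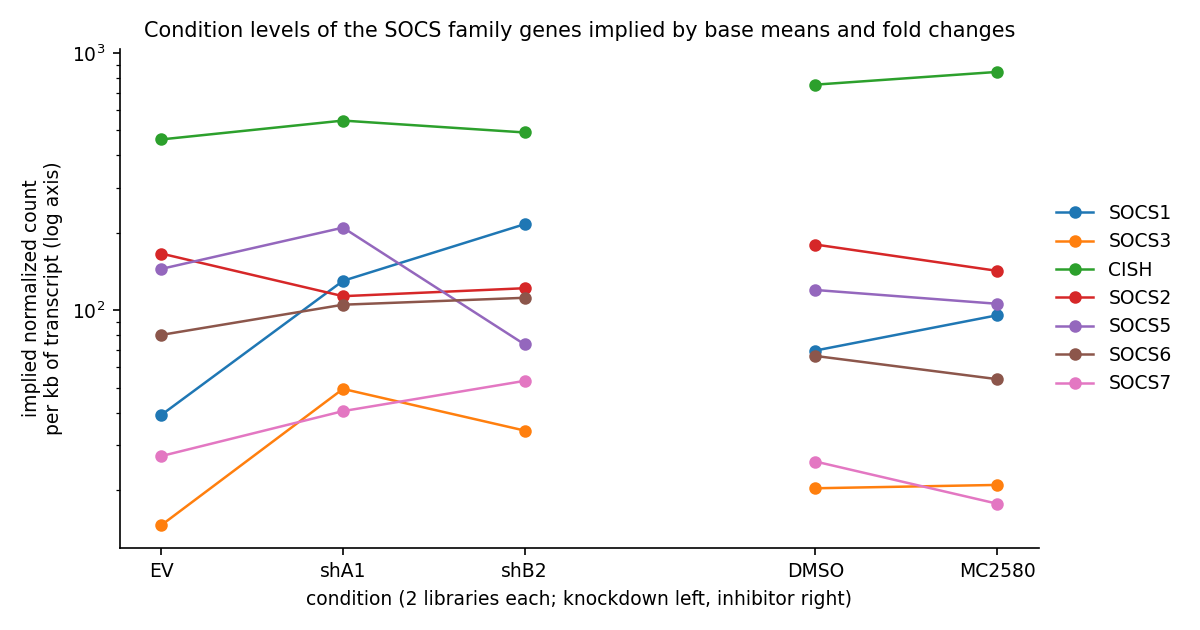
Normalized count per kb of transcript (log axis) implied by base means and fold changes for the 7 SOCS family genes in EV, shA1 and shB2 (left) and DMSO and MC2580 (right), 1 point per gene and condition and no replicate spread. CISH lies above the others in each condition, SOCS1 climbs from 39.2 in EV to 216 in shB2, and SOCS5 drops to 73.7 in shB2.

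The first question was which members changed under the hairpins against GSE1. SOCS1, the strongest inhibitor of interferon signaling in the family, rose under both hairpins, by 3.32-fold under shA1 and 5.51-fold under shB2. SOCS3, the brake on interleukin-6 type and granulocyte colony-stimulating factor receptors, rose 3.38-fold under shA1. SOCS5, which restrains interleukin-4 and epidermal growth factor receptors, fell under shB2 to 0.509 of its EV level, and SOCS7, which binds insulin receptor substrates, rose 1.96-fold under shB2. These are bulk RNA values, in which a change in the share of cells making a transcript and a change in RNA per cell cannot be told apart.

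SOCS1 (ENSG00000185338.5) lies on chromosome 16 at 11254417 to 11256204 on the minus strand of GRCh38, with 2 exons in its MANE transcript. Its implied normalized count was 48.6 in EV, 161 in shA1, 268 in shB2, 86.4 in DMSO and 118 in MC2580. The log2 fold change was 1.73 ± 0.36 (SE) under shA1 (95% interval 1.02 to 2.44, adjusted p = 2.12e-05) and 2.46 ± 0.36 under shB2 (1.76 to 3.16, adjusted p = 1.19e-10). SOCS1 thus passed the threshold in both comparisons, which share the 2 EV libraries. Among the genes tested its fold change stood 598th from the top of 16673 under shA1 and 442nd of 17913 under shB2.

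SOCS3 (ENSG00000184557.4) lies on chromosome 17 at 78356778 to 78360077 on the minus strand, with 2 exons. Its implied normalized count was 40.0 in EV, 135 in shA1, 93.2 in shB2, 55.6 in DMSO and 57.3 in MC2580, the lowest counts of the family in the control conditions. Its standard error was also the largest of the family. The log2 fold change was 1.76 ± 0.51 under shA1 (0.76 to 2.76, adjusted p = 0.00344) and 1.22 ± 0.51 under shB2 (0.22 to 2.23, adjusted p = 0.0511). SOCS3 therefore passed the threshold under shA1 and not under shB2, and the call under shA1 was lost when a fold change beyond 0.5 was required by the test itself (adjusted p = 0.119). Its fold changes under the hairpins did not differ beyond their error (shB2 minus shA1 -0.54 ± 0.72, -1.95 to 0.88, adjusted p = 0.852).

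CISH and SOCS2 are the members best known as STAT5 targets, acting on growth hormone, erythropoietin and interleukin-2 receptors. CISH (ENSG00000114737.15; chromosome 3, 50606489 to 50611774, minus strand) stood at 0.24 ± 0.14 (log2 fold change) with shA1 and 0.09 ± 0.14 with shB2 (adjusted p = 0.214 and 0.704), with intervals from -0.03 to 0.52 and from -0.19 to 0.37. The upper ends of these intervals correspond to a CISH increase of 1.43-fold under shA1 and 1.29-fold under shB2. SOCS2 (ENSG00000120833.14; chromosome 12, 93569814 to 93583487, plus strand) had implied normalized counts of 396 in EV, 271 in shA1 and 291 in shB2. Its log2 fold change was -0.55 ± 0.25 under shA1 and -0.45 ± 0.25 under shB2 (adjusted p = 0.0829 and 0.161), so that SOCS2 did not pass the test. The libraries were made without marking strand, and exons of CISH and SOCS2 share bases with genes on the other strand, 218 bases with MAPKAPK3 (4.31% of the CISH exon bases) and 277 bases with SOCS2-AS1 (4.28% of those of SOCS2). MAPKAPK3 is far more abundant than CISH, with a base mean of 9619, and had log2 fold changes of 0.08 ± 0.10 under shA1 and -0.11 ± 0.10 under shB2.

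SOCS5, SOCS6 and SOCS7 have long amino-terminal regions and act mainly on receptor tyrosine kinases and their adaptors. SOCS5 (ENSG00000171150.9; chromosome 2, 46698952 to 46780245, plus strand) had implied normalized counts of 690 in EV, 999 in shA1 and 351 in shB2. The log2 fold change was 0.53 ± 0.18 under shA1 (adjusted p = 0.0146) and -0.98 ± 0.19 under shB2 (-1.34 to -0.61, adjusted p = 1.36e-06), so the hairpins lay on either side of EV and only the decrease under shB2 passed the test. SOCS6 (ENSG00000170677.6; chromosome 18, 70289045 to 70330199, plus strand), which binds KIT and insulin receptor substrates, had implied normalized counts of 458, 600 and 638 in EV, shA1 and shB2. Its log2 fold change was 0.39 ± 0.20 under shA1 and 0.48 ± 0.20 under shB2 (adjusted p = 0.143 and 0.0490), short of the test in both. SOCS7 (ENSG00000274211.6; chromosome 17, 38351844 to 38405593, plus strand), with 10 exons, had implied normalized counts of 224, 335 and 439. Its log2 fold change was 0.58 ± 0.24 under shA1 (adjusted p = 0.0515) and 0.97 ± 0.24 under shB2 (0.51 to 1.43, adjusted p = 0.000226), which passed the test with a fold just under the threshold.

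Counted together, 2 of the 7 members passed the threshold under shA1, both higher, where 5.1% of all 16673 genes tested did so in either direction and 4.32% in the higher one. Under shB2, 1 of 7 passed the threshold (8.49% of 17913 genes) and 3 of 7 passed the test (26.3% of genes), 2 of them higher (14.2% of genes) and 1 lower (12.1% of genes). For the test alone the share of all genes under shA1 was 19.3%, and the same 2 of 7 members passed it. The median log2 fold change of the members was 0.53 under shA1 and 0.48 under shB2, beside 0.00 for all genes in each. With 7 genes, these counts describe the members and are not a test of the family.

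**Figure D2:**
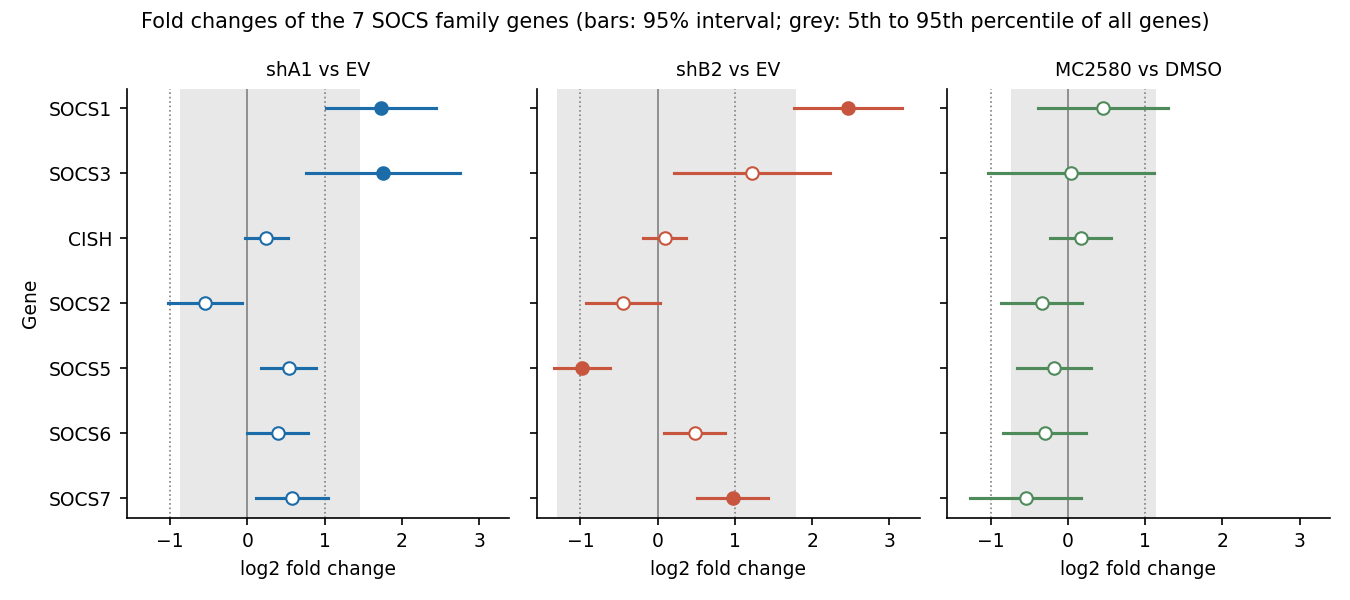
Log2 fold change (horizontal axis) of the 7 SOCS family genes (vertical axis) in the 3 comparisons with a control, 1 panel each; points are the deposited estimates from 2 libraries per condition, bars the 95% intervals, filled points passed the test, dotted lines mark a log2 fold change of 1 in size, and the grey band spans the 5th to the 95th percentile of all genes tested. SOCS1 lies to the right of the band under both hairpins, SOCS5 is filled only under shB2, to the left of 0, and every point is open under MC2580.

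The second question was whether inhibiting LSD1 had a like effect. Under MC2580, 0 of the 7 members passed the deposited DESeq2 test or the threshold, and 0 had an unadjusted p-value below 0.05, where 0.76% of 18554 genes passed the test, 0.604% the threshold and 5.77% had such an unadjusted p-value. The log2 fold changes were 0.45 ± 0.43 for SOCS1, 0.04 ± 0.55 for SOCS3, 0.16 ± 0.20 for CISH, -0.34 ± 0.27 for SOCS2, -0.18 ± 0.25 for SOCS5, -0.30 ± 0.27 for SOCS6 and -0.54 ± 0.37 for SOCS7, all with an adjusted p of 1.00. The intervals were wide for the least abundant genes, reaching from -0.39 to 1.29 for SOCS1 and from -1.03 to 1.12 for SOCS3, so a 2-fold increase of either lay within its interval. For CISH the interval was narrower, from -0.24 to 0.56.

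Fold changes were then compared with each other. Between the hairpins, SOCS5 was the only member to pass the threshold (1 of 7, beside 3.03% of 16673 genes past the threshold and 6.86% past the test), with a difference, shB2 minus shA1, of -1.51 ± 0.26 (adjusted p = 3.30e-07), which puts SOCS5 under shB2 at 0.352 of its level under shA1 (95% interval 0.248 to 0.499). For SOCS1 the same difference was 0.73 ± 0.51 (-0.27 to 1.73, adjusted p = 0.508), and for the other 5 members it lay between -0.54 and 0.39. The standard error of these differences is an upper bound, because the comparisons share EV. Against MC2580, the response to shB2 was larger for SOCS1 by 2.01 ± 0.56 (adjusted p = 0.00597) and for SOCS7 by 1.51 ± 0.44 (adjusted p = 0.00856) on the log2 scale, 2 of 7 members beside 4.51% of 17378 genes past the threshold and 6.24% past the test. Both calls were lost when a difference of more than 0.5 was required by the test itself (adjusted p = 0.130 and 0.249). For shA1 against MC2580, 0 of 7 members passed the Wald test of the difference, beside 2.54% of 16495 genes for the test and 2.01% for the threshold, and 5 had an unadjusted p-value below 0.05, beside 15.6% of genes. In that comparison SOCS1 differed by 1.28 ± 0.56 (0.18 to 2.37, adjusted p = 0.204) and SOCS3 by 1.72 ± 0.75 (0.25 to 3.18, adjusted p = 0.199). The hairpins and MC2580 were set against different controls, at 48 and 24 hours, so perturbation, time and vector cannot be told apart in these differences.

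**Figure D3:**
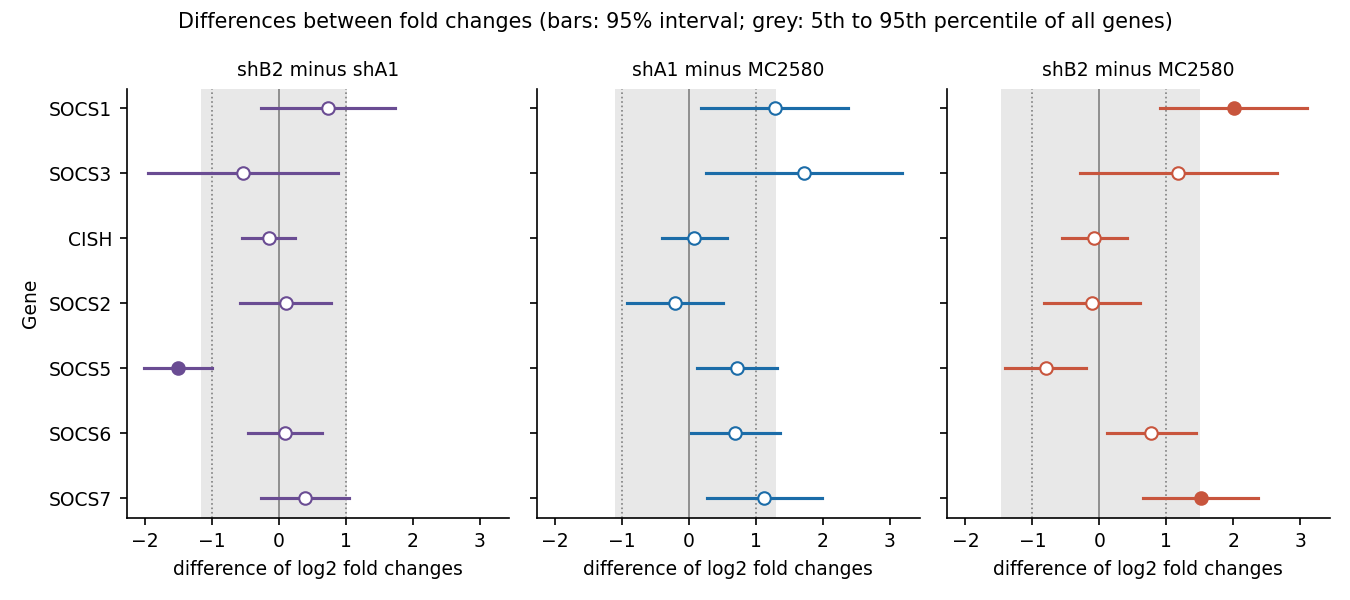
Difference of log2 fold changes (horizontal axis) for the 7 SOCS family genes, shB2 minus shA1, shA1 minus MC2580 and shB2 minus MC2580; bars are 95% intervals, filled points passed the test, dotted lines mark a difference of 1 in size, and the grey band spans the 5th to the 95th percentile of all genes. The filled points are SOCS5 at -1.51 in the first panel and SOCS1 at 2.01 and SOCS7 at 1.51 in the third.

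Because SOCS5 was the member on which the hairpins differed, its 3′ UTR was searched for matches to the hairpin strands. The 7 bases that pair with positions 2 to 8 of the shB2 antisense strand, the conventional seed, are ACTATAT. They occur once in the SOCS5 3′ UTR of 2988 bases, on the plus strand of GRCh38, and the site is shown with the match in capitals.
SOCS5, chr2:46762327-46762356: attggaaaaggACTATATatgtgagcaaga
The match is common. Of 3′ UTRs of like length 19.7% held it, and SOCS2 was the other member with 1 copy. Genes with 1 copy were lower under shB2 at the test level in 15.5% of cases, and genes with none in 17.9%. Under shA1 the same groups of genes were lower in 6.8% and 11.9% of cases, and the groups were not matched for the length of the 3′ UTR. TTCACTA pairs with positions 5 to 11 and was picked in an earlier scan of these fold changes. It occurs in none of the 7 members, and the corresponding shA1 matches, CGTCAAT and TGACGTC, do not occur in them either. Under shB2, 22.8% of genes with 1 copy of TTCACTA were lower at the test level, beside 16.9% of genes with none. Under shA1 these shares were 6.8% and 11.8%. The scan used the same fold changes, so these shares are no separate evidence. Whether a match to a hairpin strand bears on the SOCS5 difference was not tested.

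The rest of the pathway was read from 5 lists of 117 genes. Of those with an adjusted p-value, 47 of 98 passed the test under shA1 (41 higher, 6 lower), 55 of 102 under shB2 (43 higher, 12 lower) and 5 of 100 under MC2580 (all higher), where 19.3%, 26.3% and 0.76% of all genes passed. Of the listed genes with an adjusted p-value, 25 (25.5%) passed the threshold under shA1, 21 (20.6%) under shB2 and 4 (4%) under MC2580. Over all genes tested, the shares past the threshold were 5.1%, 8.49% and 0.604%. The lists were drawn up with earlier results of these data known.

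Receptors upstream of the SOCS proteins made up the first list. Of the cytokine receptors, 13 of 26 passed the test under shA1, all higher, and 14 of 28 under shB2, 13 higher and 1 lower, with medians of 0.55 and 0.52. IL10RA, the ligand-binding chain of the interleukin-10 receptor, rose by 3.72 ± 0.39 (log2 scale) with shA1 and 3.74 ± 0.39 with shB2. IL21R was 2.88 ± 0.66 and 2.80 ± 0.66, and IL12RB1, with a base mean of 17.9, was 4.48 ± 1.40 and 4.21 ± 1.40. CSF2RB, the shared chain of the interleukin-3, interleukin-5 and GM-CSF receptors, rose by 1.01 ± 0.25 under shA1 and 1.95 ± 0.25 under shB2. IL31RA rose by 1.73 ± 0.31 under shA1 and 1.72 ± 0.31 under shB2, and was the only receptor to pass the test under MC2580, at 1.85 ± 0.44 (1 of 26).

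The kinases and STATs came next. Of these, 4 of 9 passed the test under shA1, all higher, and 7 of 10 under shB2, 6 higher and 1 lower. Under MC2580, 0 of 10 passed it, and 3 had an unadjusted p-value below 0.05, beside 5.77% of all genes. STAT2, which carries type I interferon signals, rose by 1.66 ± 0.12 under shA1 and by 0.97 ± 0.12 under shB2.

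Parts of the SOCS box ligase and other SOCS box proteins moved in both directions. Under shA1, 4 of 20 were higher and 3 lower at the test level, and under shB2, 7 higher and 4 lower. Under MC2580, 0 of 20 passed, with 0 at an unadjusted p-value below 0.05, beside 5.77% of all genes. WSB2 (1.55 ± 0.25 under shA1, 1.49 ± 0.25 under shB2) and SPSB1 (1.55 ± 0.44 and 1.36 ± 0.44), both substrate adaptors, passed the threshold under each hairpin. The next list was headed other negative regulators of JAK and STAT signaling, and whether each of its genes restrains signaling in these cells was not tested. Of its genes, 7 of 15 passed under shA1, all higher, and 11 of 15 under shB2, 9 higher and 2 lower. Under MC2580, 1 of 15 passed, PARP14 at 0.84 ± 0.20. USP18, which blocks the type I interferon receptor, rose by 2.85 ± 0.17 under shA1 and 0.95 ± 0.17 under shB2. PTPN11, the phosphatase SHP-2, fell under shB2, with a log2 fold change of -1.58 ± 0.09, and was at -0.23 ± 0.09 under shA1 (adjusted p = 0.0470). PARP14, an ADP-ribosyltransferase, rose by 3.94 ± 0.48 under shA1 and 1.76 ± 0.48 under shB2, and SH2B3, the adaptor LNK, rose by 1.03 ± 0.10 and 0.74 ± 0.10. CBL, a ubiquitin ligase, rose by 0.49 ± 0.10 under shA1 and 1.14 ± 0.10 under shB2. PTPRC, the phosphatase CD45, rose by 1.40 ± 0.26 under shB2 and was at 0.50 ± 0.26 under shA1 (adjusted p = 0.164).

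Well-known STAT targets other than the SOCS genes completed the lists. Under shA1, 16 of 28 passed the test, 13 higher and 3 lower, and under shB2, 12 of 29, 8 higher and 4 lower, with medians of 0.78 and 0.25. ICAM1, an adhesion molecule, rose by 3.86 ± 0.28 under shA1, 2.39 ± 0.28 under shB2 and 1.35 ± 0.29 under MC2580. CDKN1A, the cell cycle inhibitor p21, rose by 2.43 ± 0.17 and 3.06 ± 0.17 under the hairpins. The interferon-linked genes CXCL10 (3.56 ± 0.68) and IRF9 (2.52 ± 0.22) rose under shA1, and were at -0.11 ± 0.75 and 0.56 ± 0.23 under shB2 (adjusted p = 0.943 and 0.0474). BCL6, a transcriptional repressor, rose by 2.13 ± 0.54 under shB2 and was at 1.23 ± 0.54 under shA1 (adjusted p = 0.0757). CEBPD, a myeloid transcription factor, fell under both hairpins, with log2 fold changes of -0.66 ± 0.15 and -2.20 ± 0.15. Under MC2580, 3 of 29 passed the test, ICAM1, GBP1 (3.46 ± 0.82) and FOS (1.85 ± 0.42), all higher.

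**Figure D4:**
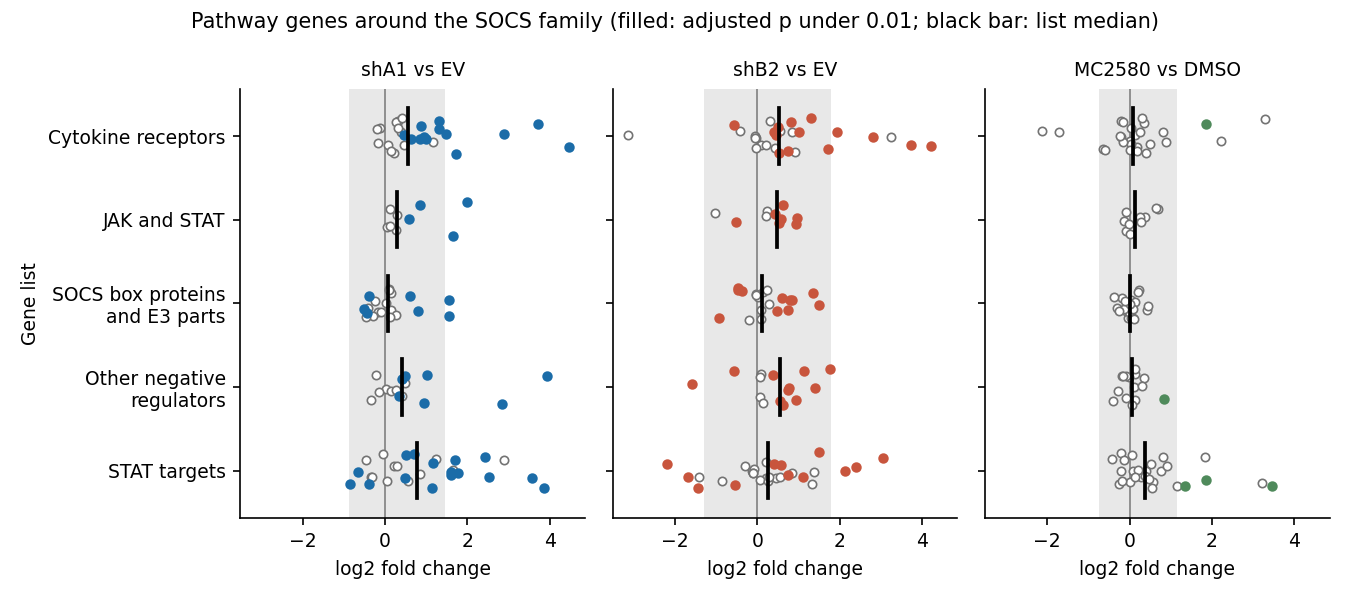
Log2 fold change (horizontal axis) of the genes of 5 pathway lists (vertical axis, jittered) under shA1, shB2 and MC2580; each point is 1 gene with an adjusted p-value, filled points passed the test, black bars are list medians and the grey band spans the 5th to the 95th percentile of all genes. Receptor medians lie at 0.55 and 0.52 under the hairpins and at 0.09 under MC2580.

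The genes whose fold changes lay closest to those of a member were found by Euclidean distance over the 3 log2 fold changes among 10915 protein-coding genes with base means of at least 50. For SOCS1 these were HRH1, ITPRIPL2, ASPHD2, DUSP5 and IFFO2, at distances of 0.30 to 0.37. HRH1, a histamine receptor, had log2 fold changes of 1.83 ± 0.20, 2.18 ± 0.20 and 0.46 ± 0.37 under shA1, shB2 and MC2580, and DUSP5, a phosphatase of ERK, of 1.99 ± 0.27, 2.47 ± 0.27 and 0.70 ± 0.35. For SOCS3 the closest were SLC35E4, SPP1, GPRC5C, APOBEC3G and TMOD2, at distances of 0.08 to 0.22. SPP1, osteopontin, had log2 fold changes of 1.74 ± 0.38, 1.10 ± 0.39 and -0.06 ± 0.46, and APOBEC3G, a cytidine deaminase, of 1.81 ± 0.23, 1.41 ± 0.23 and 0.09 ± 0.34. These distances are of the size of the standard errors of the SOCS1 and SOCS3 fold changes (0.36 to 0.55) or below, so the order within each group of 5 carries little weight.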

How the data were processed

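RNA of NB4 cells was measured in the 5 conditions above. Per the labels and the study's methods, the authors prepared TruSeq v2 libraries, which do not mark strand, aligned them with STAR 2.7 to hg38, took gene quantities from RSEM and compared groups in DESeq2; the annotation release is not given in the sources used here. The deposited tables hold per gene the base mean (a signal, the mean of counts divided by size factors), the log2 fold change with its standard error on the log2 scale, the Wald score and the p-value, raw and adjusted. These are values of the authors' own fit, used as deposited because no value per library was analysed here. The hairpin codes in the headers were assigned to shA1 and shB2 and checked against the study's gene list, where 1997 of 1997 genes held the same value. Fold changes were compared by a Wald test of their difference, adjusted over all genes with an adjusted p-value in both comparisons. The method was tested on simulated data. Condition means were solved from the base mean and the fold changes. Gene positions, exons and 3′ UTRs came from GENCODE 44 (GRCh38), in which 60261 of 60558 gene identifiers were found. "Like length" means 0.8 to 1.25 times the member's 3′ UTR. The study describes the 2 libraries of a condition as biological replicates.

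Genes named are the 7 members, GSE1, KDM1A, from each pathway list at most 4 that passed the threshold with the largest change in a comparison, and the 5 closest genes of SOCS1 and SOCS3. The members and lists were chosen with earlier results of these data known. Alternatives were a looser adjusted p (0.05), no fold threshold, a Wald test against 0.5 on the log2 scale, other sets of genes for the adjustment (every gene with a p-value, or protein-coding genes whose base mean reached 50), a standard error without the shared EV variance, and levels with fold changes 1 standard error higher or lower. Software was Python 3.11.15, numpy 2.4.6, pandas 2.3.3, scipy 1.17.1 and matplotlib 3.10.9.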

Additional observations from a re-analysis of the deposited data

Results flagged for a closer look

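SOCS5 differed between the hairpins, with a difference of log2 fold changes, shB2 minus shA1, of -1.51 by the Wald test of the difference. Against the inhibitor experiment, the fold change under shB2 exceeded that under MC2580 by 2.01 for SOCS1 and by 1.51 for SOCS7 in the same test.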

How the results depend on the processing

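No paired analysis was possible because the tables give 1 estimate per gene and comparison, and for the same reason no library could be left out and no other count model fitted. Counts below are of genes past the threshold. Of the 46 counts of members and of all pathway genes under an alternative, 39 stayed within 1.5 times the reported count, and of 75 counts of single pathway lists, 19 did not. Requiring a fold change beyond 0.5 in the Wald test left 1 of the 2 members under shA1 (SOCS3 was lost, adjusted p = 0.119), 0 of the 2 that differed between shB2 and MC2580, and 0 of the 4 pathway genes under MC2580. Without the fold threshold, shB2 gave 3 members in place of 1 (SOCS5 and SOCS7 added), and pathway genes numbered 47 in place of 25 under shA1 and 55 in place of 21 under shB2. Adjusting over every gene with a p-value left 1 of the 2 members between shB2 and MC2580 (SOCS7 was lost, adjusted p = 0.0141). SOCS1 under each hairpin and the SOCS5 difference between them passed in each alternative tried. SOCS1 under shA1 passed only narrowly in the Wald test against 0.5 (adjusted p = 0.00983). With fold changes 1 standard error higher or lower, the implied count of SOCS1 in EV ran from 38.7 to 60.6 and that of SOCS3 from 29.4 to 53.6. Low counts limit SOCS3 and SOCS1 most.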

Other observations

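SOCS4, the closest relative of SOCS5 and no member of the set, was singled out after its values were seen. It had a base mean of 924 in the knockdown experiment and log2 fold changes of 0.80 ± 0.17 under shA1 and 0.83 ± 0.17 under shB2 (adjusted p = 3.13e-05 and 9.31e-06 in the deposited DESeq2 test), and of -0.38 ± 0.23 under MC2580 (adjusted p = 1.00). The difference from MC2580 was 1.18 ± 0.28 for shA1 and 1.21 ± 0.28 for shB2 (adjusted p = 0.00208 and 0.000662 by the same difference test as above). SOCS4 differed between the hairpins by 0.03 ± 0.24 (-0.44 to 0.50), beside -1.51 ± 0.26 for SOCS5.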
